A study of Oryzias latipes with 6 samples.

Results

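Genes of cytokine, chemokine, interferon and NF-kB signalling were examined in the axial tissue of Japanese medaka (Oryzias latipes) larvae. They were chosen by symbol alone, from name stems such as il, tnf, irf, stat, socs, traf, nfkb, tlr and casp. No measured value is in the rule, but it was drawn up with earlier results of these data known. Of the 20459 genes of the authors' deposited table, 140 carry such a symbol, under 131 different symbols, and 27 of them entered the authors' test. Embryos of strain Orange-red Hd-dR were exposed for 1 h, from about 4 hours post fertilization, to 0.3 nM TCDD, or to 0.1% DMSO as the solvent control. At 20 days post fertilization, vertebrae with the muscle, fat and dermis around them were collected away from head and viscera. There were 3 libraries per group, each from a pool of 15 to 25 fish, sequenced on an Ion Torrent PGM. The authors' deposited table gives 1 FPKM value (fragment counts adjusted for gene length and depth) per gene and group, so no spread between libraries can be shown, and significance rests on the authors' q-values.

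TCDD is a dioxin that activates the aryl hydrocarbon receptor (AHR), a transcription factor that in mammals is also known to meet NF-kB, in part by pairing with the subunit RelB. Cytokines act largely through a pair of routes: interleukin-1 and Toll-like receptors (through MyD88) and TNF receptors signal by way of TRAF adaptors to NF-kB, which is held back by IkB inhibitors, whereas interferons and many interleukins signal through JAK kinases to STAT factors. Both routes induce their own brakes, IkB-alpha for NF-kB and the SOCS proteins for JAK and STAT. In skin, muscle and bone these pathways are known for their part in wound responses, muscle loss and bone remodelling.

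A set of these genes was higher in TCDD-exposed fish, led by the pro-inflammatory cytokine il1b and the transcription factor irf1b. Past q 0.05 in the authors' deposited table, there were 7 rises among the 27 tested members (25.9%, beside 10.7% of all 3286 genes tested) and 1 fall (3.70%, beside 7.46% of all). In either direction, the share over all tested genes was 18.2% by the authors' deposited table. Those that rose were il1b, irf1b, jak1, relb, nfkbiaa, stat3 and cxcl14, and the member that fell was isg20. No tested gene of the authors' deposited table had a mean of the groups under 13.7 FPKM, so these shares do not describe the 76 members below 10 FPKM in both groups, and 18 untested members lay at or above that mean. In whole tissue, more cells of a type and more RNA per cell cannot be told apart.

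Values were higher in TCDD for most members, tested or not. Of the 140, per the authors' deposited table, 98 had the higher value in TCDD and 29 the lower, and 13 were listed at 0 in both groups. Over all genes of the authors' deposited table the TCDD value was the higher in 8972 (43.9%) and the lower in 8285 (40.5%). The median log2 fold change in the authors' deposited table was 0.87 for the tested members and 0.05 for all tested genes. For untested genes above 0 in both groups it was 0.39 for the 81 members and 0.03 for all 11743. Of those 81 untested members, 26 were at least 2-fold higher in TCDD (32.1%, beside 15.7% of all such genes of the authors' deposited table) and 8 at least 2-fold lower (9.88%, beside 13.6%), with no test of either. The TCDD values of the authors' deposited table sum to less than the DMSO values, so that equal totals would raise each log2 fold change by 0.25.

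**Figure D1:**
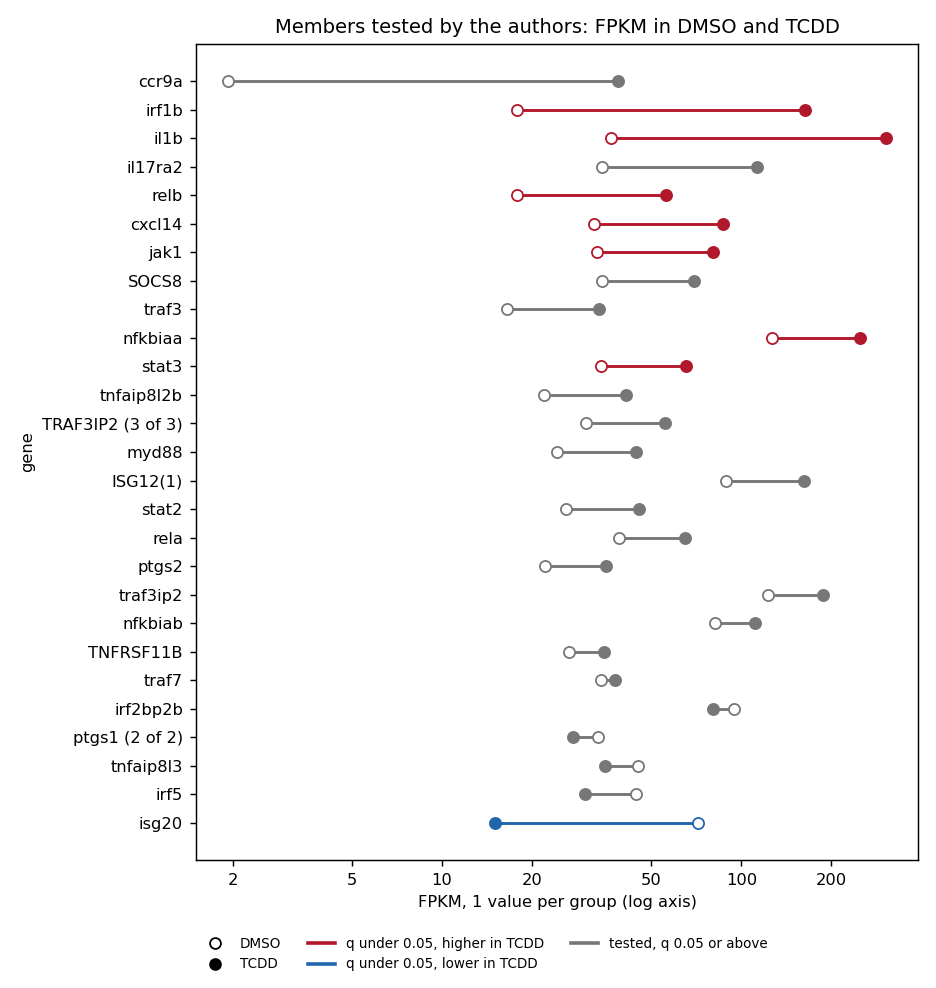
FPKM in DMSO (open points) and TCDD (filled points) for the 27 members that the authors tested, 1 value per gene and group, on a log axis, ordered by fold change. The 7 genes in red rose past q 0.05, isg20 in blue fell, and the 19 in grey did not pass, among them ccr9a, whose points lie farthest apart.

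Among the ligands, both tested genes rose. il1b encodes interleukin-1 beta, an early inflammatory cytokine of macrophages, neutrophils and epithelia. It rose from 36.8 to 303 FPKM per the authors' deposited table (8.24-fold, q = 0.00105), which made it the most abundant member in TCDD. Among the 3262 tested genes of the authors' deposited table with a finite fold change, it ranked 30 by size of rise. The gene spans positions 199939 to 200986 of chromosome 9; the sources used here name no genome build. cxcl14, a chemokine that in mammals is made by epithelia and attracts macrophages and dendritic cells, rose from 32.3 to 86.5 FPKM per the authors' deposited table (2.68-fold, q = 0.0397).

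The other ligands were untested, and all but tnfsf10l stayed below 20 FPKM in both groups. The genes tnfa and tnfb encode TNF cytokines. Per the authors' deposited table, tnfa was listed at 0 in DMSO but at 2.58 FPKM in TCDD, and tnfb had 1.36 and 5.27 FPKM. il11a, a cytokine of the interleukin-6 family, was listed at 0 in DMSO but at 6.55 FPKM in TCDD per the authors' deposited table. Neither group had signal for the anti-inflammatory cytokine il10 or for the interferon gene IFN, both listed at 0 in the authors' deposited table. il17d, a cytokine of the interleukin-17 family, had 11.3 and 18.9 FPKM per the authors' deposited table. The TRAIL-like gene tnfsf10l, the most abundant untested ligand, had 33.1 FPKM in DMSO against 32.5 FPKM in TCDD per the authors' deposited table. A TRAIL copy, tnfsf10 (2 of 2), was lower in TCDD, with 13.2 and 4.22 FPKM per the authors' deposited table. Values near 0 may rest on few reads, and read numbers are not in the table.

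No receptor gene among the members passed the test, although 2 had large differences. il17ra2 encodes a fish copy of the receptor for interleukin-17, a cytokine of barrier defence. It had 34.2 FPKM in DMSO against 112 FPKM in TCDD per the authors' deposited table (3.29-fold, q = 0.0524), just short of the threshold, at a locus of 505 bp. ccr9a, a chemokine receptor that in mammals guides lymphocytes to gut and thymus, had 1.93 and 38.7 FPKM per the authors' deposited table (20.0-fold, q = 0.431). Its fold change was the largest of the tested members, and its unadjusted p in the authors' deposited table was 0.247. The osteoprotegerin gene TNFRSF11B, a decoy receptor that restrains osteoclast formation, had 26.6 and 34.8 FPKM per the authors' deposited table (q = 0.747).

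Untested receptors stood on both sides. The interleukin-17 receptor E-like gene il17rel had 4.15 and 34.4 FPKM per the authors' deposited table, an 8.30-fold difference with no test. The TNF receptor gene tnfrsf1a had 11.6 and 23.4 FPKM and the death receptor gene tnfrsf21 had 11.3 and 23.7 FPKM per the authors' deposited table. tnfrsf19, a receptor of the same family known from skin and cartilage progenitors in mammals, was lower in TCDD, with 26.9 and 15.0 FPKM per the authors' deposited table. Of the 10 untested interleukin receptors above 0 in both groups of the authors' deposited table, 5 were higher and 5 lower in TCDD. The 6 untested chemokine receptors above 0 in both groups of the authors' deposited table were all higher in TCDD, at 10.6 FPKM or less. A second ccr9 copy, ccr9b, was listed at 0 in DMSO but at 6.86 FPKM in TCDD per the authors' deposited table.

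None of the Toll-like receptor, MyD88 or TRAF genes passed the test, though all 5 tested ones had the higher value in TCDD. myd88, the adaptor shared by interleukin-1 and most Toll-like receptors, had 24.3 and 44.4 FPKM per the authors' deposited table (1.83-fold, q = 0.136). traf3, an adaptor of interferon induction and of non-canonical NF-kB signalling, had 16.5 and 33.4 FPKM per the authors' deposited table (2.02-fold, q = 0.14). traf3ip2 encodes Act1, the adaptor that links interleukin-17 receptors to NF-kB, and was abundant, with 123 and 187 FPKM per the authors' deposited table (q = 0.177). Another copy, TRAF3IP2 (3 of 3), had 30.3 and 55.7 FPKM (q = 0.275) and traf7 had 34.1 and 37.7 FPKM (q = 0.782) per the authors' deposited table. The untested traf4a, known from epithelial and skeletal development in mice, went the other way, with 26.9 and 9.51 FPKM per the authors' deposited table. Of the 9 untested TRAF-named genes of the authors' deposited table, 5 had the higher and 4 the lower value in TCDD, among the latter traf6 (3.16 and 1.75 FPKM). All 10 Toll-like receptor genes were untested, and only TLR5 (1 of 2), the flagellin receptor, exceeded 10 FPKM in a group of the authors' deposited table (8.45 and 13.4 FPKM). TLR5 (2 of 2) was listed at 0 in DMSO but at 6.52 FPKM in TCDD per the authors' deposited table.

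NF-kB genes rose in part. relb, the subunit of the non-canonical branch, rose from 17.9 to 55.9 FPKM per the authors' deposited table (3.13-fold, q = 0.00986). nfkbiaa, a copy of the gene for the inhibitor IkB-alpha, which NF-kB itself induces, rose from 127 to 250 FPKM per the authors' deposited table (1.97-fold, q = 0.0128) and was the most abundant member in DMSO. Its other copy, nfkbiab, had 82.0 and 111 FPKM per the authors' deposited table (q = 0.314), and the difference between the copies was not tested. rela, the main activating subunit of the canonical branch, had 39.0 and 64.7 FPKM per the authors' deposited table (1.66-fold, q = 0.164). The untested subunits rel (6.36 and 12.3 FPKM) and nfkb2 (6.78 and 8.89 FPKM) were low in the authors' deposited table. tnfaip3, which encodes the NF-kB brake A20, was untested at 10.3 and 11.2 FPKM per the authors' deposited table. Of the 7 genes grouped as NF-kB subunits and inhibitors and above 0 in both groups of the authors' deposited table, all had the higher value in TCDD. Their median log2 fold change was 0.95. The group counts the untested nfkbil1 (3.39 and 8.00 FPKM), which was put here among the names that share only a prefix.

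In the JAK and STAT route, jak1 and stat3 rose. jak1, the kinase shared by interferon and interleukin-6 type receptors, rose from 32.9 to 80.6 FPKM per the authors' deposited table (2.45-fold, q = 0.00105). The other kinases jak2a (3.29 and 4.25 FPKM), jak2b (9.27 and 11.7 FPKM) and jak3 (0.246 FPKM in DMSO, and at 0 in TCDD) were untested in the authors' deposited table. stat3, the factor downstream of interleukin-6 type cytokines, rose from 34.0 to 65.5 FPKM per the authors' deposited table (1.92-fold, q = 0.0265). Its neighbour on chromosome 8, stat5.1, lies 41.1 kb away and was lower in TCDD and untested, with 5.62 and 2.92 FPKM per the authors' deposited table. stat2, a factor of type I interferon signalling, had 26.0 and 45.6 FPKM per the authors' deposited table (1.76-fold, q = 0.15). stat1a and irf9, whose products join STAT2 in the interferon-activated complex ISGF3, were untested. Per the authors' deposited table, stat1a had 8.76 and 23.0 FPKM, and irf9 had 8.58 and 21.1 FPKM.

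The SOCS brakes had the same direction in every copy and no call. All 8 SOCS genes of the authors' deposited table had the higher value in TCDD, with a median log2 fold change of 0.80, and 1 of them was tested. That gene, SOCS8, had 34.4 and 69.4 FPKM per the authors' deposited table (2.02-fold, q = 0.214), at a locus of 493 bp. Of the untested ones, socs3b, a copy of the main inhibitor of STAT3 signalling, had 8.95 and 26.0 FPKM per the authors' deposited table. The fish gene socs9 had 14.7 and 37.4 FPKM, and SOCS2, a brake on growth hormone signalling, had 29.5 and 40.6 FPKM per the authors' deposited table. The SOCS2 locus spans 478 bp.

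**Figure D2:**
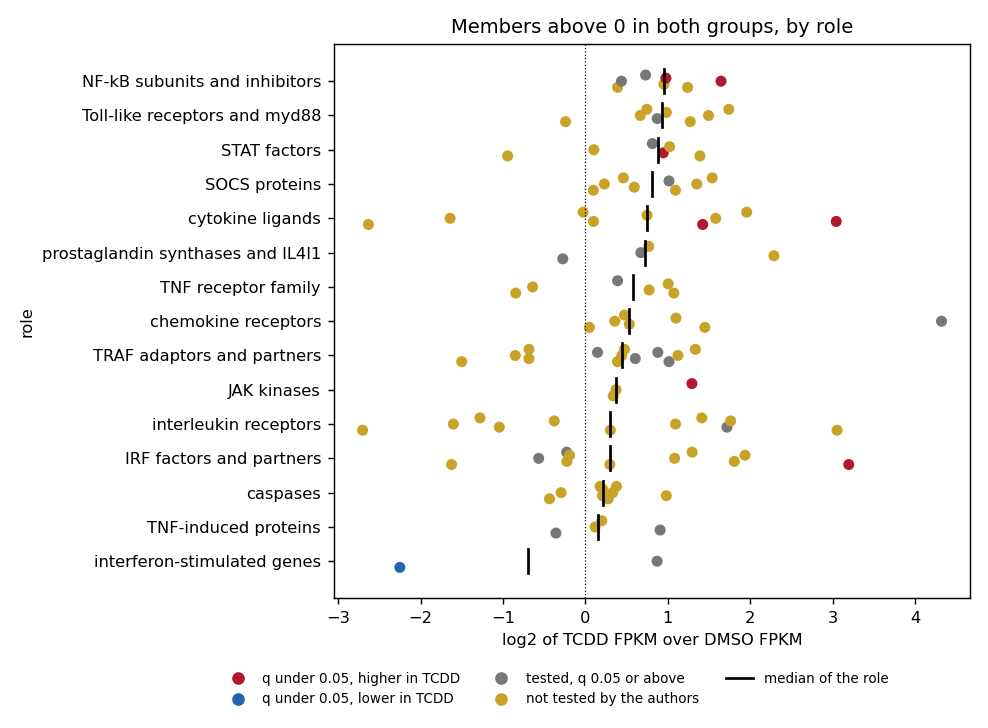
Log2 of TCDD over DMSO FPKM for the 108 members above 0 in both groups, by role, 1 point per gene, with a black bar at the median of each role. All SOCS genes and NF-kB subunits and inhibitors lie to the right of 0, interleukin receptors lie on both sides, and the caspase-named genes have a median of 0.21.

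Interferon regulatory factors and the 3 members with an isg name did not move as a block. irf1b, a copy of the gene for the interferon-induced activator IRF1, rose from 17.8 to 163 FPKM per the authors' deposited table (9.16-fold, q = 0.00105) and ranked 26 by size of rise among the 3262 genes. Its other copy, irf1a, was untested, with 4.36 and 15.2 FPKM per the authors' deposited table. irf5, an inducer of inflammatory cytokines in mammalian macrophages, had 44.5 and 30.0 FPKM per the authors' deposited table (q = 0.453). Its locus spans 840 bp. IRF2, which antagonises IRF1 in mammals, had 12.7 and 26.8 FPKM per the authors' deposited table and was untested. irf10 was listed at 0 in DMSO but at 12.0 FPKM in TCDD per the authors' deposited table, at a locus that overlaps bmp7b, spo11 and DBNDD2 (1 of 2), so its reads are uncertain. irf2bp2b, whose product is a partner of IRF2 and no IRF itself, had 94.2 and 80.4 FPKM per the authors' deposited table (q = 0.623). This difference changes sign when both groups are scaled to equal totals.

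isg20 was the member that fell. It encodes an interferon-induced exonuclease that degrades viral RNA in mammals. It fell from 71.9 to 15.1 FPKM per the authors' deposited table (4.76-fold lower, q = 0.00105), and ranked 30 by size of fall among the same 3262 genes. ISG12(1), of a family of interferon-induced mitochondrial proteins, had 88.6 and 162 FPKM per the authors' deposited table (1.83-fold, q = 0.144). isg15, a ubiquitin-like protein that is among the strongest interferon targets in mammals, was listed at 0 in both groups of the authors' deposited table.

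Prostaglandin synthases, TNF-induced proteins and caspases had no calls. ptgs2, the inducible cyclooxygenase, had 22.1 and 35.2 FPKM per the authors' deposited table (1.59-fold, q = 0.191). The constitutive cyclooxygenase ptgs1 (2 of 2) had 33.3 and 27.5 FPKM per the authors' deposited table (q = 0.606). tnfaip8l2b, a relative of the mammalian immune regulator TIPE2, had 22.0 and 41.1 FPKM (q = 0.355), and tnfaip8l3 had 45.0 and 35.1 FPKM (q = 0.682), per the authors' deposited table. The tnfaip8l3 locus spans 568 bp. None of the 9 caspase-named genes was tested. casp8, the initiator caspase of death receptors, had 20.6 and 16.8 FPKM per the authors' deposited table. The executioner caspase genes casp3a (13.5 and 15.2 FPKM) and casp3b (9.43 and 11.4 FPKM) were close between the groups in the authors' deposited table, and the casp3a locus overlaps other genes.

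**Figure D3:**
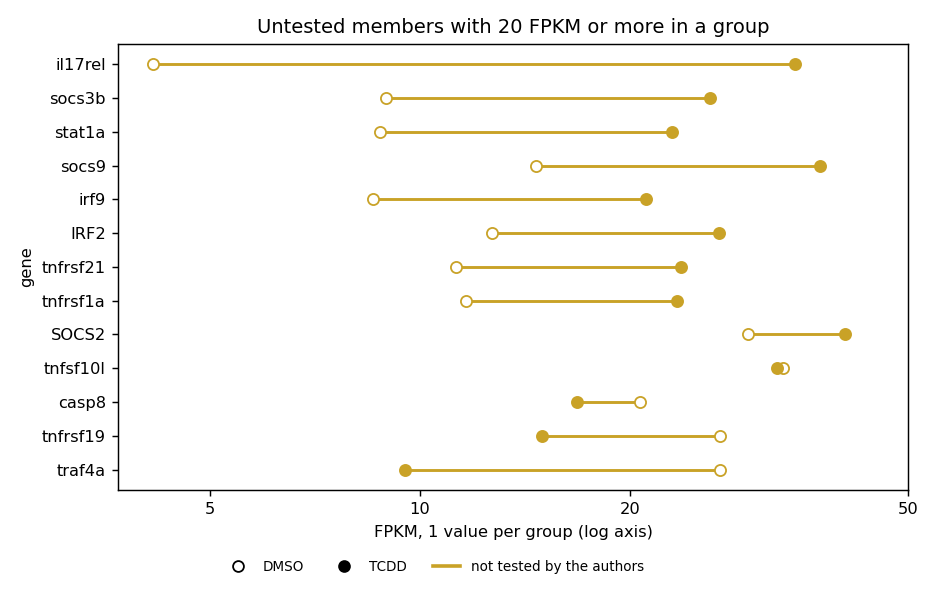
FPKM in DMSO (open points) and TCDD (filled points), on a log axis, for 13 members that the authors did not test and that reach 20 FPKM in a group; irf2bp2a, listed at 0 in DMSO, is among those left out. The widest gap is that of il17rel, and traf4a, tnfrsf19, casp8 and tnfsf10l have the lower value in TCDD.

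Other genes of the same pathways, from a list that excludes the symbols above, showed rises and no falls among those called. The list was drawn up with earlier results of these data known, so it is no independent check of the members. In the authors' deposited table, 81 genes matched the list, 10 were tested, 4 rose past q 0.05 (beside 10.7% of all genes tested) and 0 fell (beside 7.46%). At an unadjusted p under 0.05, 6 were higher and 0 lower, beside 18.7% and 13.9% of all 3286 tested genes of the authors' deposited table. tnip1, an inhibitor of NF-kB that works with A20, rose from 27.9 to 67.4 FPKM per the authors' deposited table (2.42-fold, q = 0.0072). birc2, a ubiquitin ligase that joins TRAF proteins at TNF receptors, rose from 25.8 to 52.1 FPKM per the authors' deposited table (2.02-fold, q = 0.0335). ACKR3, a scavenger receptor for the chemokine CXCL12, rose from 14.2 to 64.1 FPKM per the authors' deposited table (4.52-fold, q = 0.00625). psme2, a subunit of the interferon-inducible proteasome activator PA28, rose from 23.2 to 81.2 FPKM per the authors' deposited table (3.50-fold, q = 0.00625).

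The other tested genes of that list did not pass. b2m, the light chain of MHC class I, was by far the most abundant, with 668 and 1119 FPKM per the authors' deposited table (q = 0.0922). Per the authors' deposited table, CISH, a STAT5 brake, had 64.8 and 105 FPKM (q = 0.3), and the acute phase factor gene cebpd had 155 and 238 FPKM (q = 0.149). cebpb had 83.1 and 70.6 FPKM (q = 0.669), fadd 30.3 and 26.6 FPKM (q = 0.836) and mif 156 and 171 FPKM (q = 0.803) per the authors' deposited table. The loci of CISH (496 bp) and cebpb (862 bp) are short. None of the 15 sensing and adaptor genes of the list was tested, with 9 lower and 6 higher in TCDD by value, per the authors' deposited table. At least 2-fold lower were 4 of the 15 (26.7%, beside 13.6% of all untested genes above 0 in both groups). At least 2-fold higher were 3 (20%, beside 15.7%). Over the whole list, 21 of 63 such genes were at least 2-fold higher (33.3%) and 5 at least 2-fold lower (7.94%). Of its 16 interferon-induced and antigen processing genes, the 2 tested, b2m and psme2, had the higher value in TCDD. Of the 12 untested ones above 0 in both groups, 10 were higher and 2 lower. At least 2-fold higher were 6 of the 12 (50%, beside 15.7% of all such genes), and 0 were at least 2-fold lower (beside 13.6%). Those 6 were low, from 1.07 FPKM (PSMB9) to 6.72 FPKM (samhd1) in DMSO. In TCDD they ran from 4.85 FPKM (PSMB9) to 21.6 FPKM (samhd1), with no test. Those of the list with the highest untested means in the authors' deposited table were pla2g4a (21.7 and 29.8 FPKM), tollip (13.7 and 27.6 FPKM), psme1 (13.8 and 27.6 FPKM), tmem173 (22.2 and 18.2 FPKM) and tab2 (19.2 and 21.1 FPKM).

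**Figure D4:**
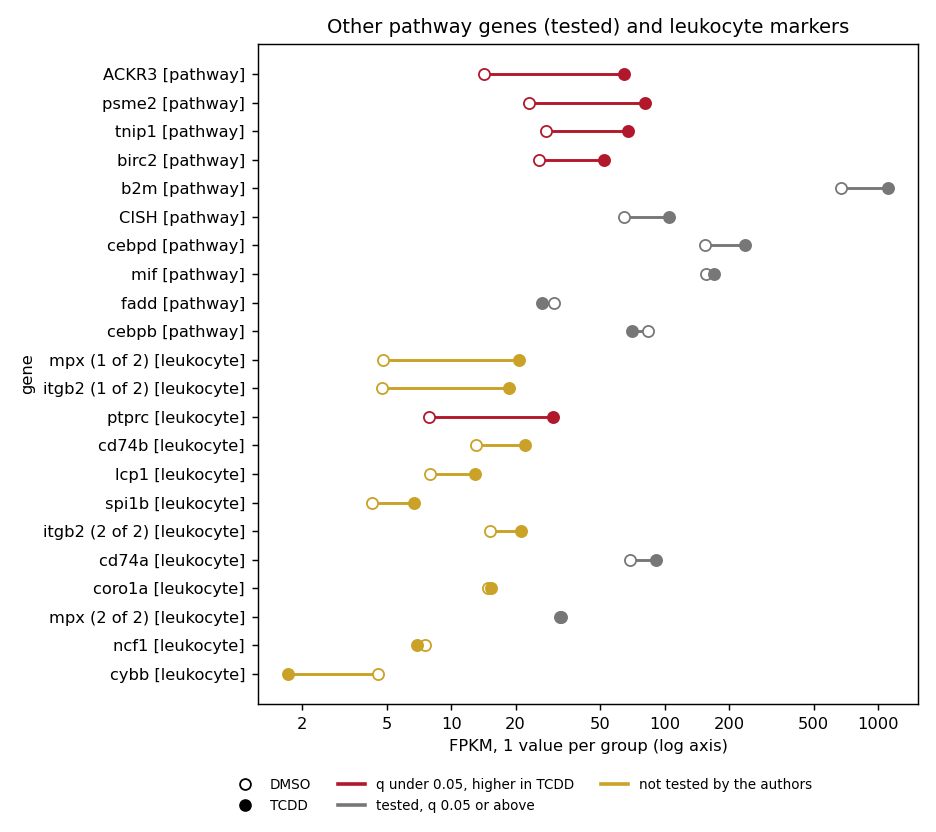
FPKM in DMSO (open points) and TCDD (filled points), on a log axis, for the 10 tested genes of the wider pathway list and for the 12 leukocyte markers above 0 in both groups. ACKR3, psme2, tnip1, birc2 and the leukocyte marker ptprc, in red, rose past q 0.05, while mpx (2 of 2) and coro1a have nearly equal values.

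Some markers of other cell types also differed by value between the groups, in both directions. Of 16 leukocyte markers in the authors' deposited table, 3 were tested, 1 rose and 0 fell, beside 10.7% and 7.46% of all tested genes. The 16 summed to 190 FPKM in DMSO and 322 FPKM in TCDD. Without SPI1, a locus of 289 bp that was listed at 0 in DMSO but at 43.1 FPKM in TCDD, the sums in the authors' deposited table were 190 and 279 FPKM. The marker that rose was ptprc, the pan-leukocyte phosphatase CD45, from 7.85 to 29.9 FPKM per the authors' deposited table (3.80-fold, q = 0.00105). The antigen presentation gene cd74a had 68.8 and 90.7 FPKM (q = 0.406) and the granulocyte gene mpx (2 of 2) had 32.7 and 32.2 FPKM (q = 0.968) per the authors' deposited table. The untested copies mpx (1 of 2) (4.80 and 20.8 FPKM), itgb2 (2 of 2) (15.2 and 21.3 FPKM) and cd74b (13.1 and 22.2 FPKM) were higher in TCDD per the authors' deposited table, and lyz was listed at 0 in both groups. Also untested and higher were itgb2 (1 of 2) (4.71 and 18.7 FPKM), lcp1 (7.99 and 12.9 FPKM), spi1b (4.24 and 6.67 FPKM) and coro1a (14.9 and 15.4 FPKM). Lower in TCDD, and untested, were cybb (4.52 and 1.71 FPKM), ncf1 (7.54 and 6.88 FPKM), spi1a (2.90 FPKM and 0) and lyn (0.597 FPKM and 0). Of the 9 untested leukocyte markers above 0 in both groups of the authors' deposited table, 7 were higher and 2 lower in TCDD. Among the 24 symbols sought, no match was found for mpeg1, marco, laptm5, tyrobp, fcer1g, rac2, was, wasb, lyzc and cd74.

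The lymphocyte markers that were matched were near 0. The 9 in the authors' deposited table summed to 4.52 FPKM in DMSO and 6.14 FPKM in TCDD, with cd79b, pax5 and rag1 listed at 0 in both groups. Of the 12 symbols sought, cd3e, cd79a and ighm were not matched. The untested ikzf1, alone above 0 in both groups, had 0.640 and 4.84 FPKM. Among 8 tested skin markers of the authors' deposited table there were 4 rises (cldne, cldni and both epcam copies) and 1 fall. That fall was of the keratin gene krt5, from 8037 to 3926 FPKM. Over all tested genes, the shares called were 10.7% higher and 7.46% lower. The cldne locus spans 637 bp. Tested without a call were krt4 (458 and 693 FPKM, q = 0.147), krt8 (631 and 610 FPKM, q = 0.92) and TP63 (59.8 and 41.1 FPKM, q = 0.288). The untested pof1b was lower in TCDD (17.7 and 14.5 FPKM). The skin list summed to 9842 FPKM in DMSO and 6889 FPKM in TCDD, but without krt5, a choice made after seeing the data, to 1804 and 2963 FPKM, by the authors' deposited table. The 6 liver markers summed to 27.9 and 102 FPKM by the authors' deposited table, with fabp10a and serpina1 listed at 0 in both groups. None was called, and only apoa1b was tested (21.4 and 42.2 FPKM, q = 0.223). The untested apoa2 (3.12 and 37.3 FPKM), tfa (3.36 and 21.0 FPKM) and fga (0 and 1.25 FPKM) were higher in TCDD. The loci of apoa1b and tfa each overlap an unnamed gene. The 7 gut and pancreas markers summed to 55.3 and 102 FPKM by the authors' deposited table. Of 2 tested, the intestinal cadherin gene cdh17 rose, from 21.7 to 44.1 FPKM (2.03-fold, q = 0.0213). The other, try, had 15.8 and 29.9 FPKM (q = 0.601), at a locus that overlaps another gene. Among the untested, CELA1 (1 of 2) was higher in TCDD (4.44 and 18.4 FPKM), as was FABP2 (1 of 2) (0 and 1.79 FPKM). Both CPA1 copies were lower (5.41 and 4.16 FPKM, 7.92 and 3.37 FPKM), and fabp2 was at 0 in both groups. The 6 eye and brain markers summed to 135 and 92.5 FPKM, with 2 tested and 0 called. Lower in TCDD were the untested cryba1b (25.3 and 2.54 FPKM) and crygn2 (25.3 FPKM and 0), and gfap (56.6 and 43.0 FPKM, q = 0.437). The tested elavl3 was higher (27.0 and 45.8 FPKM, q = 0.155). Of 2 osteoclast markers, ctsk was higher without a call (70.8 and 126 FPKM, q = 0.0558). The untested acp5a was lower (20.1 and 10.4 FPKM).

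Defining genes of the labelled tissue were present and in part lower in TCDD. The lowest value of the 7 skeletal muscle markers was 3299 FPKM (mylpfa in TCDD) by the authors' deposited table. Of the 7, 2 fell past q 0.05, mylpfa and pvalb4, beside 7.46% of all tested genes. This list summed to 439868 FPKM in DMSO and 246702 FPKM in TCDD by the authors' deposited table. Its most abundant gene, pvalb1, did not pass, at 228225 FPKM in DMSO against 119442 FPKM in TCDD (q = 0.0915). Lower in TCDD without a call were also acta1 (q = 0.216) and tnnt3a (q = 0.154). Slightly higher in TCDD, again without a call, were ckma (1.07-fold) and ckmb (1.03-fold). The drop in the sum thus rests in part on genes that did not pass. Of 6 tested bone markers, 4 fell, beside 7.46% of all tested genes. The 7 in the list summed to 3461 and 626 FPKM by the authors' deposited table. Those that fell included col10a1, from 1363 to 185 FPKM, and sp7, from 34.4 to 5.34 FPKM, by the authors' deposited table. Collagen genes made up most of the sums, with col1a2 (1510 and 302 FPKM) and col1a1b (419 and 73.8 FPKM) the other genes that fell. spp1 did not pass (52.1 and 24.6 FPKM, q = 0.0796), and alpl was slightly higher in TCDD (32.8 and 36.0 FPKM, q = 0.817). The untested bglap had 49.5 FPKM in DMSO and was at 0 in TCDD. Of the fat markers, LPL alone was matched in the authors' deposited table, so the fat in the dissection was not checked. The part of these cell types in the results above was not tested.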

How the data were processed

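RNA was measured in 6 libraries, 3 per group. Bowtie2 2.2.6 and DESeq2 appear, without roles, in the submitters' processing notes, whereas the column layout, per the file headers, is Cuffdiff's, so the program behind the values is unsettled. The sources used here name no build or annotation and do not say how libraries of a group were combined. The authors deposited, per the file headers, FPKM for each gene and group, a test score, and p-value and q-value columns. FPKM is a reading of that layout and of totals of 1315189 (DMSO) and 1108805 (TCDD). The deposited p-value was at its smallest, 5e-05, in 157 genes; q-values equalled recomputed Benjamini-Hochberg values to within 5.11e-07.

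Depth per library is not in the table, and FPKM steps cannot be turned into reads without gene lengths. With no value per library, no test was run here: a gene is called at the authors' q under 0.05. Fold changes were recomputed without a pseudocount. Loci sharing a base were counted as overlapping; no tested member had one. Whether pools came from separate clutches is not stated, so p-values may measure technical spread.

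Of the members, 2 untested ones are counted but not reported here singly. Every tested member is named, as are other untested members with 20 FPKM or more in a group or listed at 0 in 1 group and at 5 FPKM or more in the other; so are called genes of the wider pathway list and its 5 untested genes of highest mean. Other genes were named for their role with values known. Members and lists were chosen with earlier results of these data known. Alternatives were other q thresholds (0.01, 0.1), a mean of at least 50 FPKM, equal totals, pseudocounts of 1 and 10, and leaving out overlapping loci, names that share only a prefix or, added after seeing the data, loci under 1000 bp. The q-value step was tested on simulated data, and the symbol and overlap steps on small hand-set examples with known answers. Python 3.11.15, pandas 2.3.3, numpy 2.4.6 and matplotlib 3.10.9 were used.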

Additional observations from a re-analysis of the deposited data

Results flagged for a closer look

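Untested members that reached 20 FPKM or more in TCDD, with 4 times the DMSO level or more, stood out as signal that the authors' test did not cover. This limit was set with the values in view, and 2 genes met it. irf2bp2a, listed at 0 in DMSO, had 58.8 FPKM in TCDD per the authors' deposited table. Its locus spans 208 bp, beside a median of 5974 bp for tested loci. il17rel had 4.15 FPKM in DMSO but 34.4 FPKM in TCDD per the authors' deposited table, at a locus of 35638 bp. Neither difference has a test.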

How the results depend on the processing

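The 7 members called higher numbered 4 at q 0.01, and the 1 called lower numbered 0 at a mean of at least 50 FPKM. The 4 higher calls of the wider pathway list numbered 1 at that mean. Over all genes, 352 higher and 245 lower calls became 184 and 116 at q 0.01, and 218 and 145 at the mean minimum. The counts at q 0.01 are still out of 27 tested members and 3286 tested genes. How many tested genes reach the mean minimum was not counted, so no share is given at that setting. The median log2 fold change of tested members (0.87) was 0.89 without names that share only a prefix, 1.12 at equal totals, 0.86 and 0.68 with pseudocounts of 1 and 10, 1.00 at the mean minimum and 0.56 over all members above 0 in both groups. Equal totals add 0.25 to every gene, so the gap between the members and all tested genes stays the same at that setting. For the pseudocounts and the mean minimum, no median of all tested genes was set beside that of the members. For 31 named genes, equal totals and a pseudocount of 1 kept the direction in 61 of 62 values. The exception was irf2bp2b, which reversed, from -0.23 to 0.018, at equal totals. No paired analysis was possible because libraries have no separate values, which also prevented leaving out replicates. Depth is unknown, so values near 0 cannot be given a counting error.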
